A study of Capra hircus with 13 samples.

Results

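Nucleoplasmins and histone chaperones are proteins that hold histones outside the nucleosome. The genes considered were chosen by name, for their function: *NPM1*, *NPM2*, *NPM3*, *NASP*, *ASF1A*, *ASF1B*, *CHAF1A*, *CHAF1B* and *HIRA*, 9 genes in all. Of these, 8 were listed in every table of goat (*Capra hircus*) oocytes and embryos, out of 18159 gene names shared by the untreated libraries and 27121 listed for the injected ones. *HIRA*, the histone H3.3 chaperone, was not analysed here. All 8 listed genes passed the filter on low values.

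In the egg, histones are made and stored ahead of need, because the early cleavages run on maternal stores until the embryonic genome is switched on. NPM2 is the oocyte nucleoplasmin, which binds histones H2A and H2B and takes part in the remodelling of sperm chromatin. NASP keeps a soluble reserve of H3 and H4, ASF1 passes H3-H4 dimers on, and CAF-1, whose large and middle subunits are encoded by *CHAF1A* and *CHAF1B*, deposits them behind the replication fork, whereas HIRA deposits H3.3 independently of replication. In many species maternal mRNAs of the egg are cleared between fertilization and genome activation, and YTHDF2, the knocked down protein, is a reader of the m6A mark that directs mRNAs to decay.

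Polyadenylated RNA was measured by Smart-seq2 in 13 libraries. The untreated libraries were 3 of MII oocytes, which are mature oocytes arrested in meiosis, 3 of 4-cell embryos and 3 of 8-cell embryos, and they had been made in earlier studies of the same group. The injected libraries were 2 of 8-cell embryos that had received negative control (NC) siRNA and 2 of 8-cell embryos that had received *YTHDF2* siRNA. Zygotes were injected into the cytoplasm 8 h after in vitro fertilization (IVF), and embryos were collected 72 h after IVF. The *YTHDF2* siRNAs were at 20 μM, and the concentration of the NC siRNA was not given in the sources used here. The titles of the NC siRNA libraries call them WT, while their treatment label names the NC siRNA injection. The injected embryos came from slaughterhouse oocytes matured and fertilized in vitro, and every injected library was a pool of whole embryos, so a difference between embryos within a pool was not measured. Which earlier study each untreated library came from was not given in the sources used here, so stage and study cannot be told apart. The 2 siRNAs injected as a mixture against *YTHDF2* are shown, since they set the knockdown groups apart; the antisense (guide) strands are written 5′ to 3′ with bases 2 to 8, the seed, in capitals.

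s28148 antisense: uUGCUAGCaauaucagcccaa

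s28147 antisense: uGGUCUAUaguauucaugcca

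The untreated libraries held 26853876 to 42495116 fragments in total. The genes shared by the 3 stages took 64.1 to 65.4% of the MII totals and 90.4 to 94.8% of the embryo totals, and the median log2 fold change (log2FC) of all genes tested against MII was 0.29 for 4-cell and 0.37 for 8-cell embryos, so changes against MII are read against these medians. Of the untreated libraries, 8-cell replicate 1 stood apart: its log2 values correlated with the other 8-cell libraries by 0.854 and 0.898, against 0.946 to 0.978 for all other pairs of replicates within an untreated group. Its deviation from its group mean ran with that of 4-cell replicate 2, with a correlation of 0.51 across genes. Results are therefore also given without them. Oocyte markers (6 of 8 listed) summed to 1374 to 2357 FPKM in the MII libraries with *ZP2* leading, and cumulus and granulosa markers to 57.3 to 76.9 FPKM with *AMH* at 0 and *STAR* leading. The depth of the injected libraries is unknown. In bulk pools, fewer cells and less RNA per cell cannot be told apart.

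The levels spanned a wide range. FPKM, the fragments of a gene divided by its transcript length and by the library total, is a level per length, so genes can be set side by side on it. By mean FPKM in the MII oocytes, *NPM1* came first at 545.9 ± 69.9 (SD, n = 3), followed by *NASP* at 133.4 ± 11.7, *NPM2* at 113.6 ± 83.8, *ASF1B* at 41.7 ± 13.3, *ASF1A* at 40.0 ± 10.3, *CHAF1A* at 11.5 ± 1.59, *NPM3* at 8.71 ± 1.90 and *CHAF1B* at 1.79 ± 0.82. The ranges of the libraries overlapped between the neighbours *NASP* and *NPM2*, between *NPM2* and *ASF1B*, between *ASF1B* and *ASF1A*, and between *CHAF1A* and *NPM3*. *NPM1* was the 48th highest by mean FPKM in the MII oocytes among the 17918 genes above 0 in at least 1 untreated library, and *CHAF1B* the 7194th. In the 8-cell embryos the order was *NPM1*, *ASF1B*, *NASP*, *NPM2*, *ASF1A*, *CHAF1A*, *CHAF1B* and *NPM3*, in which *NPM1*, *NASP* and *CHAF1A* lay in every library above all libraries of the gene after them. The place of *ASF1B* in it rests on 8-cell replicate 1: without that library its mean was 22.7 in place of 82.3 FPKM, after *NASP*, *NPM2* and *ASF1A*. *CHAF1A* kept its place at 11.04 in place of 37.0 FPKM, and *NPM3* (1.83 FPKM) came before *CHAF1B* (1.67 FPKM).

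**Figure D1:**
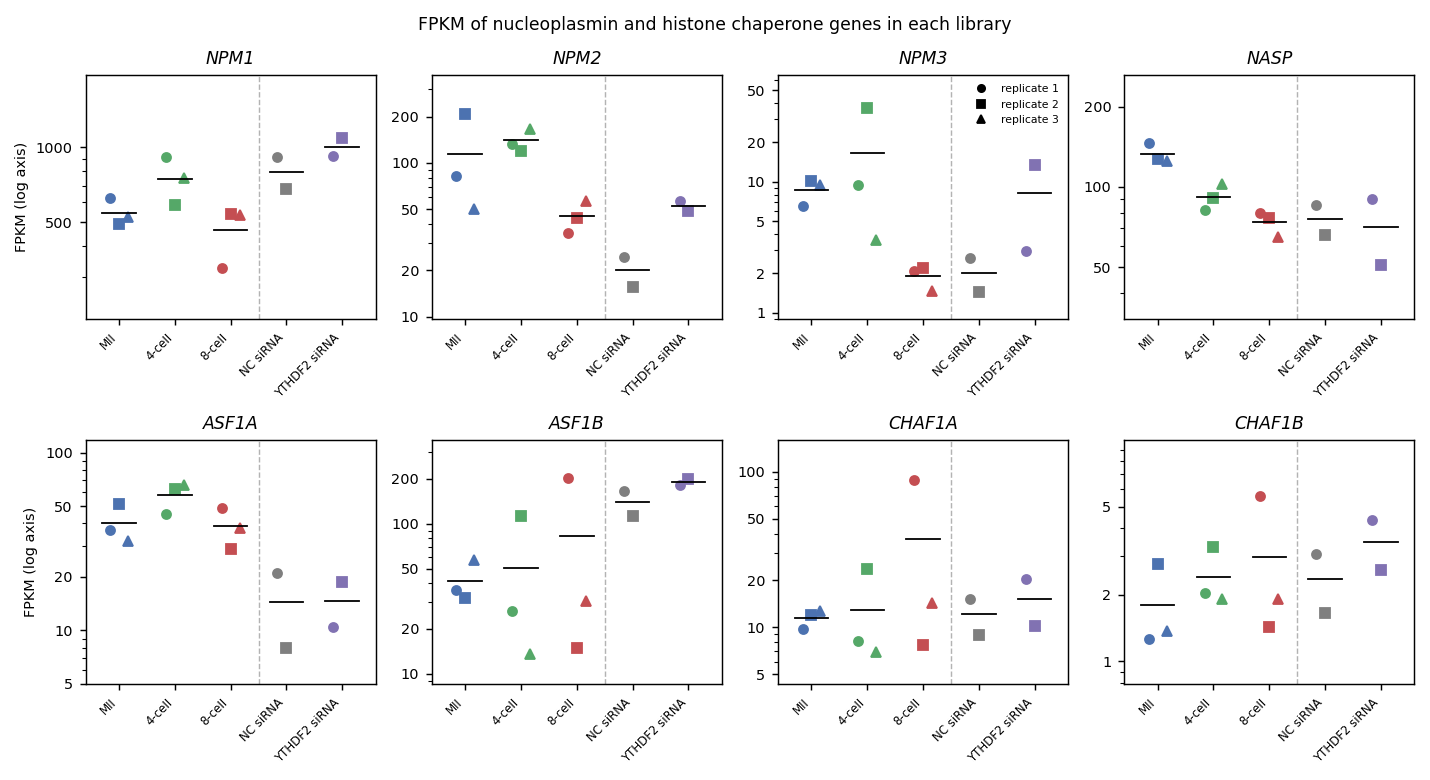
FPKM (log axis) of the 8 genes in the 13 libraries; symbols give the replicate, black bars the group mean, and the dashed line separates the untreated from the injected libraries, which were scaled separately. *NPM2* and *NPM3* lie lower in all 3 8-cell libraries than in all 3 4-cell libraries, and higher in both *YTHDF2* siRNA libraries than in both NC siRNA libraries.

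Genes were compared with limma on log2(FPKM + 1), and a gene was called higher or lower at an unadjusted p under 0.05 with a change of more than 2-fold. The study used these cut-offs with DESeq2, so the calls given here need not be its calls. Adjusted p is the Benjamini-Hochberg value over all genes tested. Against MII, none of the 8 genes was called at the 4-cell stage, where 16.7% of all 9090 genes were called higher and 6.06% lower. At the 8-cell stage none was called higher and 2, *NPM2* and *NPM3*, were called lower, against 19.8% and 8.14% of all genes. The balance of all calls turned with the scaling, from 1518 higher and 551 lower to 831 and 995 for 4-cell embryos, and from 1804 and 740 to 1124 and 1170 for 8-cell embryos, with median-ratio rescaling. By adjusted p alone, 1 of the 8 passed at each stage, *NASP* both times, against 31.2% of all genes at the first and 37.4% at the second. From the 4-cell to the 8-cell stage, 2 genes (again *NPM2* and *NPM3*) were called lower and none higher, against 4.28% lower and 4.55% higher of all genes, and none of the 8 passed by adjusted p, against 8.29%. In the knockdown the same 2 genes were called higher and none lower, against 9.48% higher and 15.3% lower of the 11004 genes tested, and none passed by adjusted p, against 7.98%. The median log2FC of the 8 genes, with that of all genes tested, was 0.33 (0.29) for 4-cell and -0.16 (0.37) for 8-cell against MII, -0.45 (0.07) for 8-cell against 4-cell and 0.39 (0.01) for *YTHDF2* siRNA against NC siRNA. With so few libraries, groups that do not overlap are common: this held for 1 of the 8 genes in 4-cell against MII, beside 51.9% of all genes, for 2 in 8-cell against MII, beside 50.1%, for 4 in 8-cell against 4-cell, beside 28.2%, and for 4 in the knockdown, beside 61.0%. Both comparisons with MII share the MII libraries, and both comparisons of 4-cell embryos share the 4-cell ones. Both comparisons of untreated 8-cell embryos share the 8-cell libraries. Their values, including the repeated lower calls of *NPM2* and *NPM3*, are therefore not separate evidence.

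**Figure D2:**
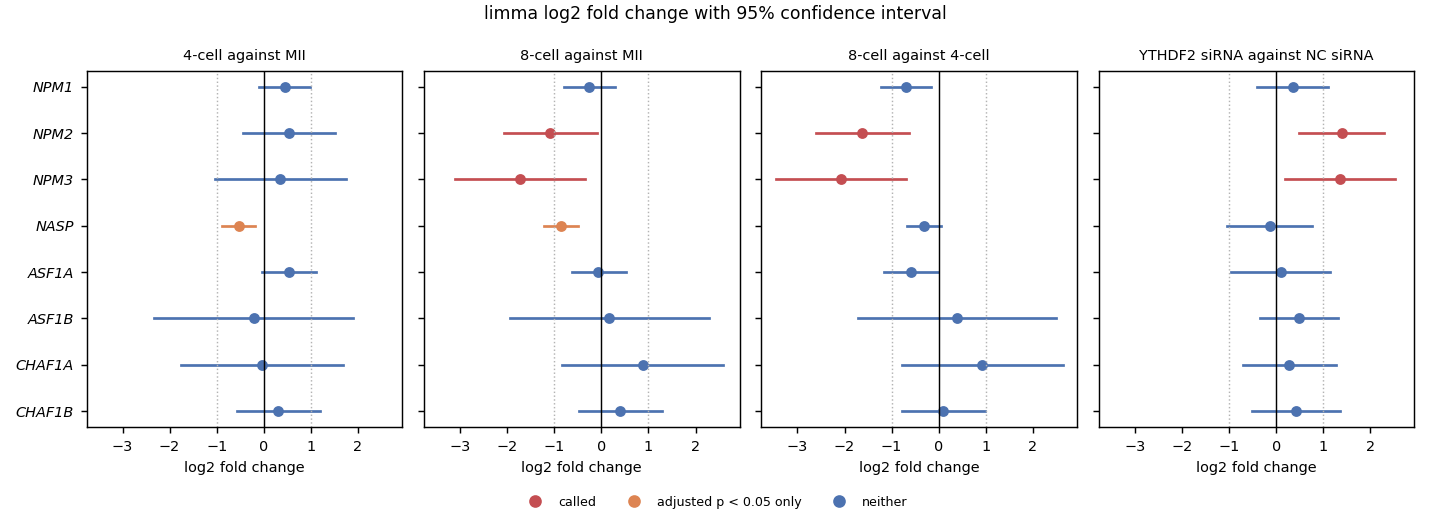
limma log2FC values of the 8 genes (points) with 95% confidence intervals (lines) in the 4 comparisons; red points were called, orange points passed by adjusted p only, and dotted lines mark a 2-fold change. The intervals of *NPM2* and *NPM3* lie below 0 in both 8-cell comparisons and above 0 in the knockdown, and the intervals of *ASF1B* and *CHAF1A* are the widest in the 3 stage comparisons.

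*NPM2* was at 82.4, 208.5 and 50.0 FPKM in the MII oocytes, at 132.7, 120.0 and 167.2 in the 4-cell embryos and at 35.0, 43.7 and 56.5 in the 8-cell embryos. The MII oocytes spread by 4.17-fold and overlapped both embryo stages, while the 3 8-cell libraries all lay below the 3 4-cell libraries. From the 4-cell to the 8-cell stage its log2FC was -1.63 (SE of 0.44, adjusted p = 0.052 by limma), with a 95% confidence interval of -2.61 to -0.64. This call was kept in all 20 alternative settings, in which the log2FC ran from -1.80 to -1.46 and the adjusted p from 0.014 to 0.17. Against MII the 4-cell change was 0.54 (SE of 0.44, adjusted p = 0.39) and the 8-cell change -1.09 (SE of 0.44, adjusted p = 0.079). Both depended on single MII libraries. Without MII replicate 2 the 4-cell embryos were called higher, by 1.10, and the 8-cell change was -0.53 and no longer called. Without MII replicate 3 the 4-cell change was 0.08. The 8-cell call against MII was also lost when 8-cell replicate 1 (-0.92) or 8-cell replicate 2 (-1.08) was left out. It was lost as well without both libraries that stood apart and in the fit of the MII and 8-cell groups alone. It was kept in 15 of 20 alternative settings.

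*NPM3*, a small nucleoplasmin relative, was at 6.56, 10.1 and 9.44 FPKM in the MII oocytes, at 9.55, 36.7 and 3.62 in the 4-cell embryos and at 2.07, 2.19 and 1.47 in the 8-cell embryos. The 8-cell values rest on 57, 61 and 45 fragments. They lay below every MII and every 4-cell library, and 4-cell replicate 2 was 5.57 times the mean of the other 4-cell libraries. In 8-cell embryos the log2FC was -2.08 against 4-cell embryos (SE of 0.62, adjusted p = 0.069) and -1.73 against MII (SE of 0.62, adjusted p = 0.052). The first was called in all 20 alternative settings, at -1.27 when 4-cell replicate 2 and at -2.79 when 4-cell replicate 3 was left out. The second was not called without MII replicate 2 (-1.62), without MII replicate 3 (-1.67) or without 8-cell replicate 3 (-1.61). At the 4-cell stage the change was 0.35 (SE of 0.62, adjusted p = 0.70), and it was -0.46 without 4-cell replicate 2.

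Markers of the oocyte and of the cumulus cells around it are given beside *NPM2* and *NPM3*. None was called between the 4-cell and 8-cell stages, of 6 and 5 tested, beside 4.55% higher and 4.28% lower of all genes. The oocyte markers summed to 2063 to 3286 FPKM in the 4-cell and 2461 to 2808 FPKM in the 8-cell embryos, and the 8-cell range lay above that of MII. Of the 6 tested, *GDF9*, an oocyte growth factor, was called higher at the 4-cell stage against MII, beside 16.7% of all genes. None was called in 8-cell embryos against MII, beside 19.8% higher and 8.14% lower of all genes. The log2FC values of the 6 against MII ran from -1.10 to 1.11 for 4-cell and from -1.34 to 0.89 for 8-cell embryos, so the markers moved both ways. The cumulus and granulosa markers summed to 67.8 to 75.4 FPKM in the 4-cell and 95.9 to 142.7 FPKM in the 8-cell embryos. Of the 5 tested, *CYP19A1* and *HAS2* were called higher at the 8-cell stage against MII, beside 19.8% of all genes. *AMH* was at 0 in all 9 libraries. The part of these markers in the changes of *NPM2* and *NPM3* was not tested.

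*NPM1*, the abundant nucleolar member that also works in ribosome production, was at 624, 490 and 524 FPKM in the MII oocytes, 910, 584 and 751 in the 4-cell embryos and 327, 537 and 536 in the 8-cell embryos. The 8-cell libraries all lay below the 4-cell ones, with a log2FC of -0.69 (SE of 0.24, adjusted p = 0.11), which is under 2-fold and was not called. Against MII its log2FC was 0.44 (adjusted p = 0.19) for 4-cell and -0.26 (adjusted p = 0.43) for 8-cell embryos. Within each library *NPM1* made up most of the summed FPKM of the 3 nucleoplasmins: 69.1 to 89.8% in the MII oocytes, 78.9 to 86.5% in the 4-cell and 89.8 to 92.1% in the 8-cell embryos. The share of *NPM2* was 8.57 to 29.4% in the MII oocytes, 12.6 to 18.1% in the 4-cell and 7.51 to 9.62% in the 8-cell embryos. Every 8-cell share of *NPM2* lay below every 4-cell share, a ratio within a library that no rescaling of a whole library alters.

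*NASP* had the lowest coefficient of variation of the 8 genes in each untreated group. It was at 146.8, 127.8 and 125.6 FPKM in the MII oocytes, 82.0, 91.1 and 103.0 in the 4-cell embryos and 80.0, 76.1 and 64.6 in the 8-cell embryos. The MII libraries all lay above the 4-cell libraries, and these above the 8-cell libraries. Against MII its log2FC was -0.53 for 4-cell embryos (SE of 0.16, adjusted p = 0.030 by limma) and -0.85 for 8-cell embryos (SE of 0.16, adjusted p = 0.0028). Both changes were under 2-fold and so not called by the cut-offs used here. The change from the 4-cell to the 8-cell stage was -0.32 (SE of 0.16, adjusted p = 0.25). Scaling moved the size of the change against MII, since all genes shift with it: the 8-cell change was -1.23 with median-ratio rescaling and -1.29 with quantile normalization, and at the same summed FPKM in each library it was -1.27, with *NASP* called lower in each. The 8-cell adjusted p stayed under 0.05 in all 20 alternative settings (0.00028 to 0.018). The 4-cell adjusted p did so in 13 of 20 and ran from 0.0022 to 0.12, with 0.12 without MII replicate 1.

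*ASF1A* and *ASF1B* encode the paralogs of the H3-H4 carrier ASF1, of which the second is known to follow proliferation. *ASF1A* was at 36.7, 51.5 and 31.7 FPKM in the MII oocytes, 45.3, 62.3 and 65.5 in the 4-cell embryos and 48.8, 28.8 and 37.6 in the 8-cell embryos, with overlapping groups throughout. It was not called at any stage, with log2FC values of 0.53 (adjusted p = 0.15) and -0.06 (adjusted p = 0.88) against MII and -0.59 (adjusted p = 0.20) from the 4-cell to the 8-cell stage. *ASF1B* was at 36.1, 32.1 and 56.9 FPKM in the MII oocytes, 26.0, 112.6 and 13.6 in the 4-cell embryos and 201.6, 14.7 and 30.6 in the 8-cell embryos. The high values were those of 4-cell replicate 2, at 5.68 times the mean of the other 4-cell libraries, and of 8-cell replicate 1, at 8.89 times the mean of the other 8-cell libraries. The stage changes of *ASF1B* could not be resolved, with confidence intervals of -2.33 to 1.89 and -1.94 to 2.28 against MII and of -1.72 to 2.50 between the embryo stages. Without those 2 libraries the log2FC values against MII were -1.06 at the 4-cell stage, where *ASF1B* was then called lower, and -0.89 at the 8-cell stage. The adjusted p at the 4-cell stage was then 0.067, and 0.067 to 0.99 over the alternatives.

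*CHAF1A*, the large CAF-1 subunit, was at 9.73, 12.0 and 12.8 FPKM in the MII oocytes, 8.17, 23.6 and 6.90 in the 4-cell embryos and 89.0, 7.67 and 14.4 in the 8-cell embryos. *CHAF1B*, the middle subunit, was at 1.26, 2.74 and 1.37 FPKM in the MII oocytes, 2.03, 3.29 and 1.92 in the 4-cell embryos and 5.55, 1.43 and 1.91 in the 8-cell embryos. Again 8-cell replicate 1 was the highest library for both genes, at 8.06 times the mean of the other 8-cell libraries for *CHAF1A* and 3.32 times for *CHAF1B*. In that library 18.9% of the tested genes were more than 2-fold above the mean of the other 8-cell libraries, on FPKM + 1, and 3 of the 8 genes, *ASF1B*, *CHAF1A* and *CHAF1B*, were among them. What sets this library apart was not tested.

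The stage changes of both CAF-1 genes were within the spread of the replicates. *CHAF1A* had a log2FC of 0.88 in 8-cell embryos against MII (SE of 0.76, adjusted p = 0.39) and of -0.11 without 8-cell replicate 1. Between the embryo stages its change was 0.92 (SE of 0.76, adjusted p = 0.48), and it was called higher in 1 setting, at 1.62 without 8-cell replicate 2. The adjusted p there was 0.17, and 0.17 to 0.95 over the alternatives. *CHAF1B* changed by 0.40 at the 8-cell stage against MII (SE of 0.39, adjusted p = 0.45) and by -0.03 without 8-cell replicate 1. At the 4-cell stage the values were -0.04 for *CHAF1A* (SE of 0.76) and 0.31 for *CHAF1B* (SE of 0.39).

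**Figure D3:**
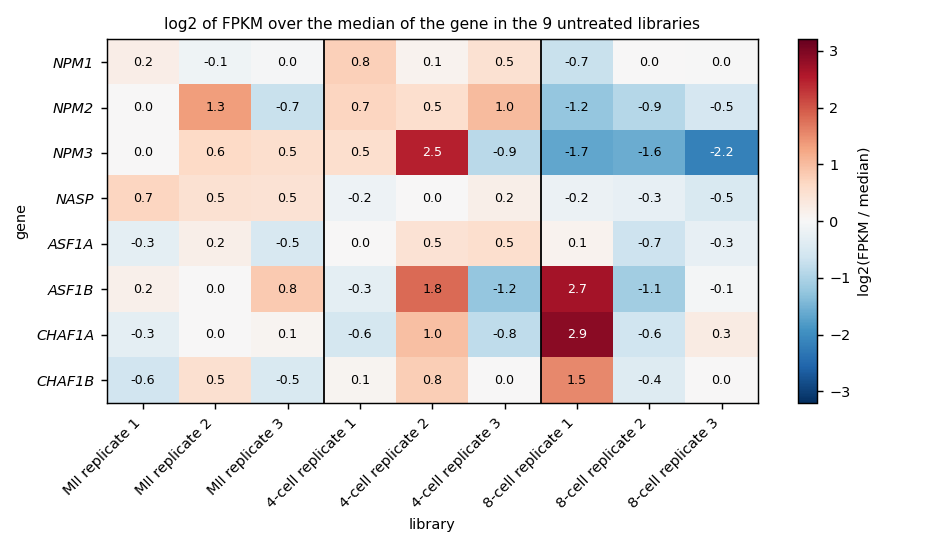
The log2 of FPKM over the median of each gene in the 9 untreated libraries; rows are genes, columns are libraries, red is above and blue below the median. *ASF1B*, *CHAF1A* and *CHAF1B* are highest in 8-cell replicate 1, *NPM3* is lowest in the 3 8-cell libraries, and *NASP* is highest in the 3 MII libraries.

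Across the 9 untreated libraries the log2 values of *ASF1B* and *CHAF1A* had a Pearson correlation of 0.92, those of *CHAF1A* and *CHAF1B* of 0.87 and those of *ASF1B* and *CHAF1B* of 0.74. These points share the stage groups and the 2 libraries noted above. Without 8-cell replicate 1 and 4-cell replicate 2 the values were 0.79, 0.13 and -0.15 over 7 libraries, so the correlations with *CHAF1B* rest on those libraries. *NPM2* and *ASF1A* correlated by 0.67 over all 9 and by 0.91 over the 7. This pair is named because its value over the 7 was the highest of all pairs. *NPM2* and *CHAF1B* went from -0.05 to 0.76 in the same way.

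The other pathway genes were taken from lists of known partners. Of 21 H3-H4 chaperone partners and import factors, 17 were tested, of which 3 were called higher and 1 lower at the 4-cell stage against MII, and 2 higher and 1 lower at the 8-cell stage, beside 16.7% and 6.06%, and 19.8% and 8.14%, of all genes. *HAT1*, the acetyltransferase of newly made H4, was at 34.0, 78.6 and 33.1 FPKM in the MII oocytes and at 158, 116 and 192 in the 4-cell embryos, a log2FC of 1.75 (adjusted p = 0.0093). *POLE3* and *POLE4*, which pair as histone-binding subunits of DNA polymerase epsilon, went opposite ways. *POLE3* rose by 1.67 and 2.58 on the log2 scale at the 4-cell and 8-cell stages (adjusted p = 0.012 and 0.0011), and *POLE4* fell by 1.78 and 1.69 (adjusted p = 0.00045 and 0.00038). *MMS22L*, which works with TONSL on newly replicated chromatin, rose by 1.48 and 1.04 (adjusted p = 0.00078 and 0.0031). From the 4-cell to the 8-cell stage none was called higher and 2 lower, beside 4.55% and 4.28% of all genes. *RBBP4*, the histone-binding small subunit of CAF-1, went from 272, 281 and 328 to 156, 110 and 113 FPKM (log2FC -1.23, adjusted p = 0.0067), and *HAT1* changed by -1.11 (adjusted p = 0.12). No call of these genes reversed in any of 20 alternative settings, and those of *POLE3*, *POLE4*, *RBBP4* and of *HAT1* at the 4-cell stage were kept in all. *MMS22L* was not called at the 4-cell stage at the same summed FPKM (0.95), nor at the 8-cell stage with any of the 3 scalings (0.67 by median ratios) or without 8-cell replicate 2 or 3. Between the embryo stages *HAT1* was not called at the same summed FPKM (-0.99), without 4-cell replicate 1 or 3, without 8-cell replicate 1, or without both libraries that stood apart. The median of this list was 0.03, 0.05 and 0.13 in the 3 stage comparisons, against 0.29, 0.37 and 0.07 for all genes.

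All 10 H2A-H2B chaperones listed were tested. *VPS72*, which delivers H2A.Z, fell from 106, 100 and 71.3 FPKM in the MII oocytes to 23.3, 39.2 and 29.4 in the 4-cell and 44.7, 29.1 and 37.9 in the 8-cell embryos, with log2FC values of -1.57 (adjusted p = 0.0017) and -1.29 (adjusted p = 0.0034). It was the only member of the list called lower at either stage. *ANP32A*, an acidic nuclear phosphoprotein, was called higher at the 8-cell stage against MII (1.10, adjusted p = 0.026), but this call was lost in 5 of 19 alternative settings, which were the 3 scalings (0.81 by median ratios) and leaving out MII replicate 1 or MII replicate 3, whereas *VPS72* was called in all 20 alternative settings. None of the 10 was called between the embryo stages. The shares of all genes called higher and lower were 16.7% and 6.06% in the first comparison, 19.8% and 8.14% in the second and 4.55% and 4.28% between the embryo stages, and 0 or 1 of the 10 was called in each direction. The list medians were 0.19, 0.24 and 0.24, against 0.29, 0.37 and 0.07 for all genes. Of 16 histone variant and histone mRNA processing genes, 5 were listed under the names used here and 4 were tested in the stages. *LSM10*, of the U7 particle that processes histone mRNAs, was called higher at the 4-cell stage (1.16, adjusted p = 0.11), a call kept in 8 of 20 alternative settings and standing beside 16.7% of all genes, and no other of the 4 was called at any stage.

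The knockdown was checked first on its target. *YTHDF2* was at 111.5 and 158.6 FPKM in the NC siRNA libraries and at 8.07 and 4.47 in the *YTHDF2* siRNA libraries, a log2FC of -4.25 (SE of 0.43, adjusted p = 0.00037). The values of the injected libraries were scaled separately from the untreated ones and are tested only among themselves.

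*NPM2* was at 24.5 and 15.5 FPKM in the NC siRNA libraries and at 56.9 and 48.7 in the *YTHDF2* siRNA libraries, without overlap. The log2FC was 1.39 (SE of 0.42, adjusted p = 0.054) with a 95% confidence interval of 0.49 to 2.28. It was called higher in 11 of 12 alternative settings and ran from 1.07 to 1.70, with an adjusted p of 0.036 to 0.30. The setting in which it was not called was the one without NC siRNA replicate 2 (1.07). Its share of the summed nucleoplasmin FPKM was 2.62 and 2.23% in the NC siRNA and 5.80 and 4.23% in the *YTHDF2* siRNA libraries, again without overlap. The oocyte markers moved the same way: they summed to 445 to 660 FPKM in the NC siRNA and 837 to 1629 in the *YTHDF2* siRNA libraries, 3 of the 5 tested (*ZP2*, *ZP3* and *ZP4*, which encode zona pellucida proteins) were called higher, beside 9.48% of all genes, and *OOSP2* was at 0 in all 4. The call of *ZP4* was kept in 6 of 12 alternative settings and lost, among others, with median-ratio rescaling, while *ZP2* was not called without *YTHDF2* siRNA replicate 2 and *ZP3* not without NC siRNA replicate 2. Of the cumulus markers, 2 of the 4 tested, *HAS2* and *TNFAIP6*, were called higher, beside the same 9.48%, and that list summed to 44.4 to 52.2 and to 82.1 to 91.5 FPKM. *FSHR*, *INHA* and *HSD17B1* were at 0 in all 4 libraries. Their part in the change of *NPM2* was not tested.

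*NPM3* was at 2.61 and 1.44 FPKM in the NC siRNA libraries and at 2.97 and 13.5 in the *YTHDF2* siRNA libraries. The groups did not overlap, but only *YTHDF2* siRNA replicate 2 lay far above the controls. The log2FC was 1.35 (SE of 0.55, adjusted p = 0.12). It was 0.42 and not called without that library, and 2.29 without *YTHDF2* siRNA replicate 1. It was also not called without NC siRNA replicate 2, with no filter on low values, or with median-ratio rescaling.

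*NPM1* was at 910 and 677 FPKM in the NC siRNA and 922 and 1088 in the *YTHDF2* siRNA libraries, with a log2FC of 0.35 (SE of 0.36, adjusted p = 0.53). *ASF1B* was at 165.6 and 112.7 against 182.1 and 200.1 FPKM, with a change of 0.48 (SE of 0.39, adjusted p = 0.42). For both genes the groups did not overlap, as for 61.0% of all genes, and the change missed the threshold. The others overlapped between the groups. *NASP* was at 85.5 and 65.7 against 89.8 and 51.1 FPKM (log2FC -0.14, confidence interval -1.04 to 0.75), and *ASF1A* at 21.0 and 7.97 against 10.5 and 18.6 FPKM (0.10, -0.96 to 1.15). *CHAF1A* was at 15.2 and 8.96 against 20.4 and 10.2 FPKM (0.28, -0.71 to 1.28), and *CHAF1B* at 3.05 and 1.65 against 4.35 and 2.59 FPKM (0.42, -0.52 to 1.36). These intervals reach 2-fold in at least one direction, so a change of that size could have been missed with 2 libraries a group.

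**Figure D4:**
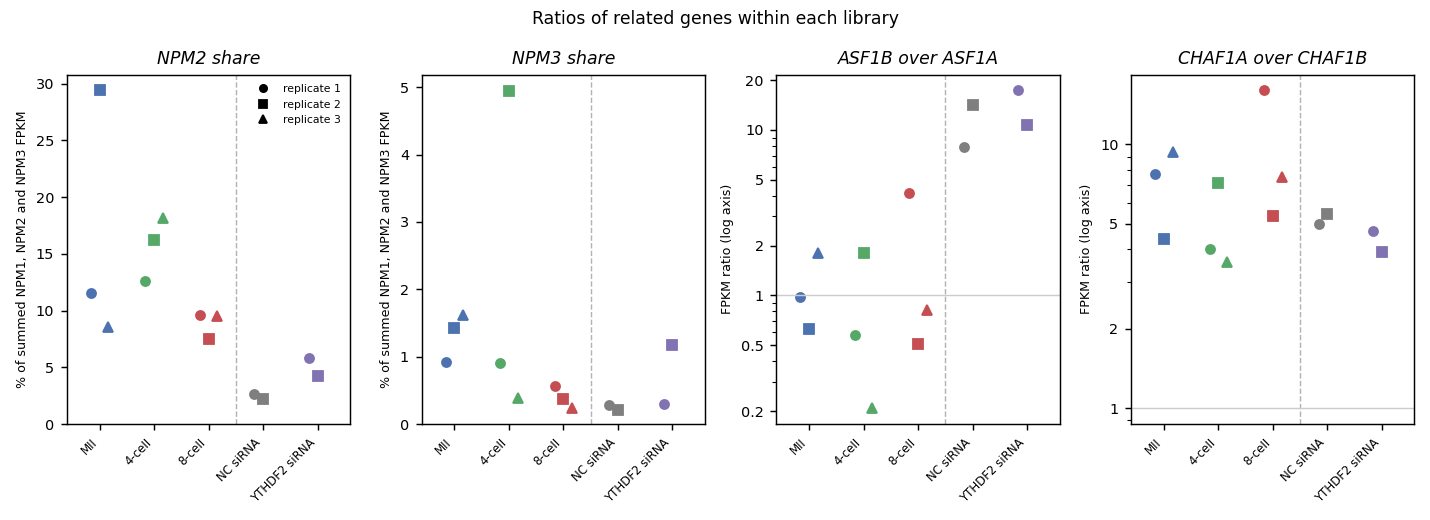
Shares and ratios of related genes computed within each library; the first panels give *NPM2* and *NPM3* as a percentage of the summed FPKM of the 3 nucleoplasmins, the others *ASF1B* over *ASF1A* and *CHAF1A* over *CHAF1B* on log axes. The *NPM2* share is 2.62 and 2.23% in the NC siRNA and 5.80 and 4.23% in the *YTHDF2* siRNA libraries, and *ASF1B* over *ASF1A* lies between 0.21 and 4.14 in the untreated and between 7.89 and 17.3 in the injected libraries.

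The ratio of the ASF1 paralogs separated the untreated from the injected libraries without overlap, as did the share of *NPM2*. *ASF1B* over *ASF1A* was 0.98, 0.62 and 1.79 in the MII oocytes, 0.57, 1.81 and 0.21 in the 4-cell and 4.14, 0.51 and 0.81 in the 8-cell embryos. It was 7.89 and 14.1 in the NC siRNA and 17.3 and 10.8 in the *YTHDF2* siRNA libraries, with overlap between the injected groups. Injection and study differ together between the 2 sets and cannot be told apart. *CHAF1A* over *CHAF1B* was 3.92 to 5.43 in the injected libraries, within the 3.60 to 16.0 of the untreated ones.

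Among the H3-H4 partners 2 were called higher and 3 lower in the knockdown, of 17 tested, beside 9.48% and 15.3% of all genes. *HAT1* went from 304 and 577 to 177 and 141 FPKM (log2FC -1.40, adjusted p = 0.049), and *UBN2*, a subunit of the HIRA complex, from 12.3 and 15.1 to 5.38 and 2.99 FPKM (-1.54, adjusted p = 0.045). *SUPT6H*, a histone chaperone of transcription elongation, changed by -1.19 (adjusted p = 0.12). The calls upward were *DNAJC9*, a heat shock co-chaperone that binds H3-H4, from 68.2 and 42.3 to 120 and 111 FPKM (1.09, adjusted p = 0.10), and *MCM2*, a subunit of the replicative helicase that binds H3-H4, from 2.70 and 1.37 to 5.33 and 4.63 FPKM (1.01, adjusted p = 0.14). Of the 10 H2A-H2B chaperones *VPS72* was called higher (1.09, adjusted p = 0.094) and *SET* lower (-1.06, adjusted p = 0.091). None of the 5 histone variant and processing genes tested was called. Of these 7 calls, that of *UBN2* was kept in all 12 alternative settings. *HAT1*, *DNAJC9*, *MCM2*, *VPS72* and *SET* were not called without NC siRNA replicate 2, and *SUPT6H* not without NC siRNA replicate 1. *SUPT6H*, *SET* and *MCM2* were not called without *YTHDF2* siRNA replicate 2, and *VPS72* and *MCM2* not without *YTHDF2* siRNA replicate 1. *MCM2* and *SUPT6H* were also not called with no filter on low values, nor *SET* with quantile normalization. The list medians were -0.14, -0.21 and 0.23, against 0.01 for all genes.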

How the data were processed

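Transcript levels were measured in 13 Smart-seq2 libraries. The authors aligned reads to goat genome ARS1 with HISAT2, counted uniquely mapped reads with HTSeq and deposited FPKM values for each library, which are the values used here. The injected values are rounded to 2 decimals. No column of values was left unused, repeated names were dropped, and gene names are those of the files. FPKM steps gave back whole fragments (within 0.02 of a whole number) for 17915 of 17918 gene names above 0 in the untreated libraries, whereas the injected values gave no such steps and their depth is unknown.

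A gene was tested where its FPKM averaged 1 or more in the libraries of that fit. The test was limma 3.58.1 (R 4.3.3, eBayes with trend) on log2(FPKM + 1), the 9 untreated libraries in 1 fit and the 4 injected libraries in another. A fold change on this scale understates the change of low genes. Fits were tested on simulated data. Tables and figures used Python 3.11.15, numpy 2.4.6, pandas 2.3.3 and matplotlib 3.10.9. Nothing says that replicates came from separate animals or cultures, so p-values may measure technical spread only. No pairing by replicate number was assumed. Deviations of same-numbered libraries correlated by -0.51 to 0.20, but they cancel out within a group by construction, so these values cannot decide whether numbers pair the libraries.

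Named are all members, *YTHDF2* as the check, up to 4 called genes with the largest change in each list and comparison, and the 3 genes most alike to 1 gene per chaperone class. *MCM2* in the knockdown and the marker genes lie outside this rule and were named after their values were seen. Members and lists were chosen with earlier results of these data known. Alternatives were other pseudocounts, filters, scalings, a replicate block, no trend, the compared groups alone and leaving out each library. Leaving out a library of the stage not compared cannot move a log2FC, only its p-value, so these settings are weaker checks. Added after seeing the data were voom on recovered fragments, leaving out 4-cell replicate 2 with 8-cell replicate 1, and a crossed pairing.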

Additional observations from a re-analysis of the deposited data

How the results depend on the processing

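All values here are log2 fold changes or counts by limma. Of the 8 genes in 4 comparisons, 517 of the alternative values kept their direction and call, 13 lost the call, 7 gained one and 35 changed sign. Scaling moved changes against MII: medians over all genes of -0.01 and 0.05 with median-ratio rescaling replaced 0.29 and 0.37. The 1518 higher and 551 lower calls of 4-cell against MII became 831 and 995 with median-ratio rescaling, or 866 and 927 with quantile normalization, and the 1804 and 740 of 8-cell against MII became 1124 and 1170, or 1096 and 1221. At the 4-cell stage *NPM1* then changed sign to -0.18 with quantile normalization, and at the same summed FPKM *NPM1*, *NPM3* and *CHAF1B* went to -0.10, -0.13 and -0.05 and 1 gene (*NASP*) was called lower. At the 8-cell stage against MII *ASF1B* went to -0.21 with median ratios, -0.18 with quantiles and -0.25 at the same sum, and between the embryo stages *CHAF1B* went to -0.07 with quantile normalization. With only the 2 groups compared, 1 gene was called lower at the 8-cell stage against MII. In the knockdown 1 gene in place of 2 was called higher with no filter and with median-ratio rescaling. A filter at 5 FPKM gave 322 calls over all genes in place of 551, 232 in place of 414 and 1114 in place of 1685 (lower at the 4-cell stage, higher from the 4-cell to the 8-cell stage, lower in the knockdown), with fewer genes tested.

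With 4-cell replicate 2 and 8-cell replicate 1 both left out, 1 gene was called lower in each comparison with MII. For 4-cell against MII *NPM3* was at -0.46. For 8-cell against MII *ASF1B*, *CHAF1A* and *CHAF1B* were at -0.89, -0.11 and -0.03, and *CHAF1B* at -0.16 between the embryo stages. Leaving out each library in turn gave 0 to 1 genes called higher at the 4-cell stage, 0 to 2 lower at the 8-cell stage against MII, 0 to 1 higher between the embryo stages and 0 to 2 higher in the knockdown. Values ran from -0.46 to 1.06 for *NPM3*, -1.06 to 0.42 for *ASF1B* and -0.55 to 0.27 for *CHAF1A* in 4-cell against MII. For 8-cell against MII they ran from -0.24 to 0.14 for *ASF1A*, -0.89 to 0.95 for *ASF1B*, -0.11 to 1.58 for *CHAF1A* and -0.03 to 0.69 for *CHAF1B*. Between the embryo stages they ran from -0.67 to 1.23 for *ASF1B*, -0.07 to 1.62 for *CHAF1A* and -0.34 to 0.38 for *CHAF1B*, and in the knockdown from -0.54 to 0.26 for *NASP*, -0.55 to 0.74 for *ASF1A* and -0.19 to 0.75 for *CHAF1A*. Over all genes, calls higher between the embryo stages went from 414 to 818 without 8-cell replicate 2, and in the knockdown from 1043 to 545 without NC siRNA replicate 2. In the knockdown a lone library is assumed to vary like the other group.

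With the replicate number as a replicate block the members called stayed at 0 higher and 2 lower at the 8-cell stage in both comparisons and at 2 higher in the knockdown, and the adjusted p of *NASP* at the 4-cell stage went from 0.030 to 0.075. With the knockdown numbers crossed in the replicate block, 1063 genes were called higher and 1747 lower, against 1043 and 1685 without it. The causes were not tested. With 2 or 3 libraries a group, the wide intervals of *ASF1B* and *CHAF1A* and the 45 to 61 fragments of *NPM3* at the 8-cell stage limit what can be told.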

Other observations

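The genes whose pattern over the 9 untreated libraries was most like that of a chaperone gene were taken from 3673 genes that averaged 10 FPKM or more, by the Pearson correlation of log2(FPKM + 1). This is a description, since the points share stage and library. For *NPM2* they were *C11H9orf78* (0.949), *ACAT1* (0.945) and *MOSPD2* (0.938). Being chosen for likeness to *NPM2*, they share its fall from the 4-cell to the 8-cell embryos by construction, which is no finding. In the knockdown they did not move together: *ACAT1* was called lower (-1.35, adjusted p = 0.053 by limma) and *MOSPD2* higher (1.25, adjusted p = 0.097), beside 1.39 for *NPM2*, and *C11H9orf78* was at -0.63 (adjusted p = 0.31). For *NASP* they were *NUP107* (0.971), *MTIF2* (0.970) and *AKAP9* (0.961). Each averaged at most 9.28 FPKM over the 6 embryo libraries, so they passed the limit of 10 FPKM through the MII oocytes, where *NASP* is also highest. *NUP107*, a nuclear pore subunit, was at 46.0, 37.8 and 30.6 FPKM in the MII oocytes, 9.44, 16.4 and 13.9 in the 4-cell and 5.65, 5.18 and 4.48 in the 8-cell embryos.

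For *ASF1B* the genes most alike were *TAGLN2* (0.975), *NR4A1* (0.971) and *TBRG1* (0.970), and for *CHAF1A* they were *FAM104A* (0.988), *PTBP1* (0.986) and *BNIP3* (0.986). *ASF1B* and *CHAF1A* are highest in 8-cell replicate 1, and genes chosen for their likeness have that library in common with them by construction, so their high correlations are no finding. *TAGLN2*, *NR4A1* and *FAM104A* averaged 12.0, 10.6 and 10.2 FPKM over all 9 libraries and 7.24, 7.34 and 7.10 FPKM without it, so they passed the limit of 10 FPKM only through it. None of these 6 genes but *NR4A1* (1.15, adjusted p = 0.13) was called in the knockdown.

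Of 7 sperm markers, 6 were listed for the injected libraries, where they summed to 17.6 to 26.0 FPKM with NC siRNA and to 5.13 to 29.3 FPKM with *YTHDF2* siRNA, *TNP2* leading. For the untreated libraries 4 were listed, which summed to at most 1.36 FPKM. The 2 sums cover different genes on separately scaled values and are not compared. Of the 3 tested in the knockdown, *SPACA1* was called lower, beside 15.3% of all genes, and the log2FC values of the 3 ran from -1.64 to -0.38.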
